A study of Mus musculus with 7 samples.

Results

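The genes described here were the osteoblast transcription factors Runx2, Sp7, Dlx3 and Dlx5, the osteoblast membrane protein gene Ifitm5, and the mouse osteocalcin genes Bglap, Bglap2 and Bglap3. They were found by matching the gene identifiers of the deposited tables to GENCODE symbols, which gave 8 of the 43346 genes in the tables. Total RNA was sequenced from tibial growth plates of 7 male F1 mice, aged 21 d, each carrying 1 C57BL/6J (B6) and 1 CAST/EiJ (CAST) copy of every autosome. All 7 mice belonged to the same group, so the comparison was between the B6 and CAST alleles inside each mouse. Such a comparison concerns differences carried on the same chromosome as a gene. The X-linked gene Phex had 1865 B6 and 1.87 CAST counts on average, with B6 higher in all 7 males. Males take their X from the mother, so the B6 alleles were the maternal ones. Strain and parent of origin therefore cannot be told apart in these mice. The mice carried the numbers 1, 2, 3, 4, 5, 7 and 8, and each was a separate animal with a library of its own. Proximal and distal growth plates were homogenized whole, so the position of a cell within the plate was lost.

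Osteoblasts arise at the vascular front of the growth plate, where cartilage is replaced by bone. Runx2 is the runt-domain factor without which no osteoblasts form, and it also acts in hypertrophic chondrocytes. Sp7 (osterix) is a zinc-finger factor required after Runx2, and Dlx3 and Dlx5 are distal-less homeodomain factors that bind regulatory regions of osteoblast genes. Osteocalcin is a small vitamin K-dependent calcium-binding protein secreted by mature osteoblasts. In mice its gene is present in tandem copies, of which Bglap and Bglap2 are the osteoblast genes and Bglap3 is known for expression outside bone. Ifitm5 (BRIL) is a membrane protein made in osteoblasts during mineralization.

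The labels name the samples as chondrocytes, but defining markers of both cartilage and bone were abundant. All 7 chondrocyte markers and all 8 osteoblast and osteocyte markers had at least 10 counts in every mouse. The chondrocyte markers summed to 52523 to 88842 CPM (counts per 1000000 counts of the mouse). The osteoblast and osteocyte markers summed to 71840 to 124817 CPM, nearly all of it from Col1a1 and Col1a2. The other markers of that list had medians from 25.8 CPM (Sost) to 691 CPM (Alpl). These sums do not compare numbers of cells. Erythroid markers summed to 8337 to 20252 CPM, neutrophil markers to 1172 to 2523 CPM and osteoclast markers to 4143 to 6028 CPM. B lineage markers summed to 158 to 367 CPM, endothelial markers to 219 to 306 CPM, skeletal muscle markers to 3229 to 6619 CPM, hypertrophic chondrocyte markers to 2898 to 4471 CPM and adipocyte markers to 141 to 237 CPM. No marker in these lists was at 0. Depth was 14098019 to 37849667 counts per mouse (median 27603769), of which the structural RNAs Rn7s1, Rn7s2 and Rn7sk took 15.5% to 23.8%. In whole tissue, fewer osteoblasts and less RNA per osteoblast cannot be told apart.

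The osteocalcin copies lie side by side on Chr. 3 (GRCm38/mm10), all on the minus strand: Bglap3 from 88368616 to 88372743, Bglap2 from 88377736 to 88378699 and Bglap from 88383501 to 88384464. Their coding sequences are shown because the reads of 75 bases had to be divided among them. Each has 285 bases without the stop codon (95 codons over 4 exons in Bglap and Bglap2), taken from the GENCODE M21 transcripts of the B6 reference. In the Bglap line, capitals mark the bases that differ from Bglap2, and in the other lines they mark the bases that differ from Bglap.
Bglap: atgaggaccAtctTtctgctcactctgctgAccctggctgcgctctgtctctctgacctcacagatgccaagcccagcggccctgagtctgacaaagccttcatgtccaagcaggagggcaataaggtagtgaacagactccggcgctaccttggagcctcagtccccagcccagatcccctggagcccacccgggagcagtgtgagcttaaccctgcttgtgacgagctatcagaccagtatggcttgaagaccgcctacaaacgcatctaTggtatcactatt
Bglap2: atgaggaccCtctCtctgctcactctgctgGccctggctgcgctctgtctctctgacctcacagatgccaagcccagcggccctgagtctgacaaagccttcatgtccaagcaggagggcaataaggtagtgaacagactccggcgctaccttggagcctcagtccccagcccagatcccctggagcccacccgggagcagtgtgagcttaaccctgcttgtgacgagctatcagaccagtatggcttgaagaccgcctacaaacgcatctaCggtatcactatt
Bglap3: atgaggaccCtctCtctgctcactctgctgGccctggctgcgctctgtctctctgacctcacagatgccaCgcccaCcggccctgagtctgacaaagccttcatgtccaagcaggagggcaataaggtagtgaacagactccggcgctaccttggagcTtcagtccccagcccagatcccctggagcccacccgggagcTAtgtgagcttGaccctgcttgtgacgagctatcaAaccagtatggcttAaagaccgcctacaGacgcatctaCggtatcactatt
Counted from 1 at the A of the start codon, with the Bglap base first, the Bglap2 differences were A10C, T14C, A31G and T273C. Between Bglap and Bglap2, 281 of 285 coding bases (98.6%) were the same. Bglap3 differed from Bglap at 13 bases (95.4% identity) and from Bglap2 at 9 bases (96.8% identity). Between A31G and T273C the coding sequences of Bglap and Bglap2 were the same. Cut into all possible stretches of 75 bases, the annotated transcripts of Bglap shared 272 of 544 stretches with another gene and those of Bglap2 shared 73.3%. Of the 397 stretches of Bglap2, 242 (61.0%) also occurred in Bglap and 60 (15.1%) in Bglap3. Bglap3, whose transcripts are longer, shared 5.02%.

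The other genes could be counted with less overlap. Sp7 (Chr. 15, 102356606 to 102367182), Dlx3 (Chr. 11, 95120119 to 95125296) and Dlx5 (Chr. 6, 6877805 to 6882085) shared no stretch of 75 bases with another annotated transcript. Ifitm5 (Chr. 7, 140948958 to 140950291) shared 22.6% of its stretches with Gm45717, which has no row in the deposited tables, so these reads had no other row to go to. Runx2 (Chr. 17, 44495987 to 44814797) shared 0.174% on its own strand and 4.84% with the antisense gene Runx2os1. The kit keeps strand, but whether strand was used in counting is not given in the sources used here, and without strand the reads of that overlap cannot be told apart. The count of both alleles was a whole number in all 7 mice, to a tolerance of 1e-04, for Sp7, Dlx3, Dlx5 and Ifitm5. For Runx2 and each osteocalcin copy it was fractional in all 7 mice, which marks reads divided with another gene. The sum over the 3 osteocalcin copies was whole in 6 of 7 mice, with mouse 2 as the exception, so in 6 mice the divided reads stayed inside this family to that tolerance.

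Osteocalcin was by far the most abundant product of these genes, and the transcription factors were present at low levels. In CPM per kb of exon, with both alleles added, Bglap had a median of 2711 (range 2238 to 3192 over the 7 mice) and Bglap2 a median of 743 (644 to 1006). Ifitm5 followed with a median of 47.6 (37.2 to 56.1) and Sp7 with 33.5 (28.2 to 38.7). Runx2 had a median of 7.20 (6.53 to 8.76) and Dlx3 a median of 5.65 (4.89 to 7.55). The lowest per-length levels were those of Bglap3, with a median of 2.45 (1.85 to 3.10), and Dlx5, with a median of 1.90 (1.33 to 2.63).

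**Figure D1:**
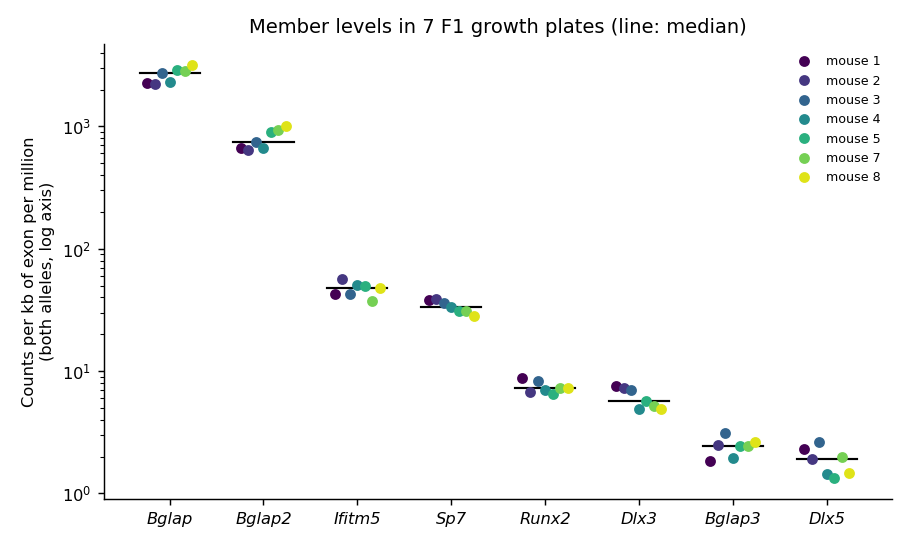
Level of each gene in CPM per kb of exon (both alleles, log axis), with 1 point per mouse (7 mice) and a line at the median. Bglap and Bglap2 sat above all other genes in every mouse, while the points of Runx2 and Dlx3, and of Bglap3 and Dlx5, overlapped.

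Neighbours in this order were compared inside each mouse (exact sign-flip permutation test, two-sided, adjusted over the 7 pairs). The per-length level of Bglap exceeded that of Bglap2 by 1.74 ± 0.0865 on the log2 scale (SD, n = 7, adjusted exact p = 0.0219). The adjusted p was the same for Bglap2 over Ifitm5, Ifitm5 over Sp7, Sp7 over Runx2 and Dlx3 over Bglap3, each higher in 7 of 7 mice. The levels of the osteocalcin copies depend on how their shared reads were divided. The excess of Bglap over Bglap2 also differed by allele, since Bglap had means of 19017 B6 and 23649 CAST counts and Bglap2 9747 and 15.8. Ifitm5 exceeded Sp7 by only 0.46 ± 0.239 (SD, n = 7) on the log2 scale, and the ranges of both overlapped across mice. Runx2 exceeded Dlx3 in 6 of 7 mice (0.31 ± 0.238 log2 units, SD, n = 7, adjusted exact p = 0.0365), with mouse 2 as the exception. This order no longer passed 0.05 when any of the 6 mice other than mouse 2 was left out. Bglap3 and Dlx5 were not separated beyond their spread (0.40 ± 0.404 log2 units, SD, n = 7, adjusted exact p = 0.0625), although without mouse 1 the adjusted p was 0.0365. With the longest transcript as length in place of the union of exons, Runx2 exceeded Dlx3 by 0.76 (adjusted exact permutation p = 0.0182) and Bglap3 exceeded Dlx5 by 0.087 (adjusted exact p = 0.578).

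The spread of these genes between mice was around that of other genes. The SD of log2 CPM was 0.16 for Runx2, 0.17 for Sp7, 0.20 for Bglap, 0.20 for Ifitm5, 0.25 for Bglap3, 0.27 for Bglap2, 0.28 for Dlx3 and 0.37 for Dlx5. Over the 15111 genes that reached 10 counts in each mouse, the median SD was 0.22. Dlx5, with 63 to 164 counts per mouse, was the gene with the widest spread of the 8, and its highest mouse had 1.97 times the CPM of its lowest. Sp7 ranged from 95.8 CPM in mouse 8 to 131 CPM in mouse 2, and Runx2 from 57.7 CPM in mouse 5 to 77.4 CPM in mouse 1.

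Between alleles, 6 of the 8 genes differed at a false discovery rate (FDR) under 0.20, the threshold of the study's methods, in edgeR's likelihood-ratio test over the 21805 tested genes. Estimated counts from the CAST allele were higher for Dlx3, Ifitm5, Bglap and Bglap3, and those from the B6 allele for Sp7 and Bglap2. Reads shared by the osteocalcin copies were divided among them, so the calls of Bglap, Bglap2 and Bglap3 are not independent of each other. Summed over these copies, B6 was higher in 7 of 7 mice, with a mean log2 ratio of CAST to B6 of -0.28. Across all tested genes 32.6% were called, 15.4% with CAST higher and 17.2% with B6 higher. The tested genes include X-linked genes, of which these males hold a B6 copy alone. Among the 15111 genes that reached 10 counts in each mouse, as all 8 did, 37.1% were called. Each called gene moved the same way in all 7 mice, which was true of 23.1% of all tested genes, called or not. The calls came from the same counts, so this agreement is no separate support for them. At an FDR under 0.05, 4 of the 8 genes remained (Dlx3, Bglap, Bglap2 and Bglap3), against 22.1% of all tested genes. With mice as a replicate block, which compares the alleles of the same library, 7 of the 8 were called, Runx2 being the addition, against 42.7% of all tested genes.

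**Figure D2:**
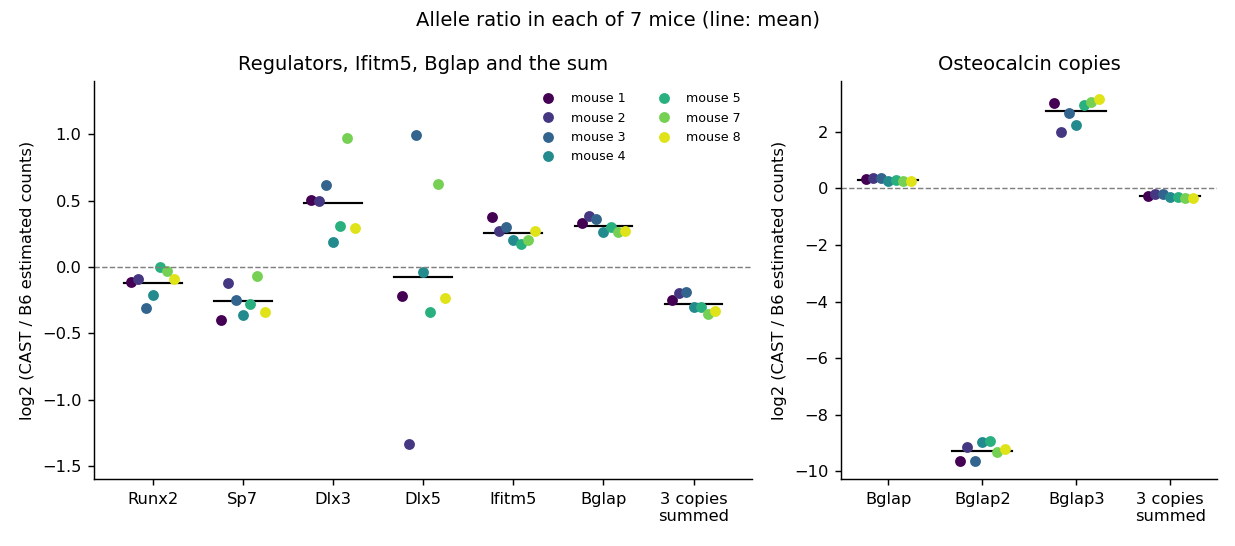
The log2 ratio of CAST to B6 estimated counts for each gene and for the 3 osteocalcin copies summed, with 1 point per mouse (7 mice), a line at the mean and a dashed line at equal alleles. Left, the regulators, Ifitm5, Bglap and the sum, and right, the osteocalcin copies on a wider axis, where Bglap2 lies near -9, Bglap3 above 2, Bglap just above 0 and the sum just below 0.

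Runx2, the factor at the head of the pathway, had nearly equal counts from both alleles. Its B6 counts were 459 to 1232 per mouse, with a median of 912, and its CAST counts were 448 to 1136, with a median of 858. The allele ranges overlapped across mice, which differed in depth, but within a mouse B6 was higher in 6 of 7. The exception was mouse 5, with 1091 B6 and 1093 CAST counts. The log2 fold change of CAST over B6 was -0.11 and did not pass the threshold (FDR 0.498, edgeR likelihood-ratio test). In the fit with mice as a replicate block it was called (-0.10, FDR 0.0614). The mean log2 ratio over mice was -0.12 ± 0.106 (SD, n = 7, exact sign-flip permutation p = 0.0312), and the fitted B6 level was 1.08 times that of CAST.

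Sp7 was higher from the B6 allele in 7 of 7 mice. Its B6 counts ran from 760 in mouse 7 to 2272 in mouse 1, with a median of 1821, and its CAST counts from 724 to 1874, with a median of 1535. The per-mouse log2 ratio lay between -0.40 and -0.07, with a mean of -0.26 ± 0.125 (SD, n = 7, exact sign-flip permutation p = 0.0156, the smallest that 7 mice allow). The log2 fold change was -0.24 (FDR 0.102 from edgeR), a B6 level 1.18 times that of CAST. Without mouse 1, where the B6 excess was greatest, the FDR was 0.227 and the call was lost.

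Of the distal-less factors, Dlx3 differed between alleles and Dlx5 did not pass the test. Dlx3 counts from the CAST allele were 125 to 353 per mouse (median 304), and those from the B6 allele were 63.6 to 250 (median 198). CAST was higher in 7 of 7 mice. The log2 ratio was lowest, 0.19, in mouse 4 and highest, 0.97, in mouse 7, with a mean of 0.48 ± 0.262 (SD, n = 7, exact sign-flip permutation p = 0.0156). The fold change was 1.41 (log2 0.49, FDR 0.00298, edgeR), and it was called with each mouse left out in turn.

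Dlx5 was the gene whose alleles varied most from mouse to mouse. Its B6 counts were 24.7 to 91.9 (median 54.7) and its CAST counts 33.6 to 109 (median 38.3). In mouse 2, 92 of 128 counts (71.9%, 95% Wilson interval 63.5% to 78.9%) came from the B6 allele, and in mouse 3, 55 of 164 (33.5%, interval 26.8% to 41.1%). In the other 5 mice the interval included an equal share. These intervals cover counting error only, and they are too narrow where reads matching both alleles were divided between them. B6 was higher in 5 mice and CAST in 2. The SD of the log2 ratio was 0.746, beside a median SD of 0.259 over the genes that reached 10 counts. Its log2 fold change of -0.01 did not pass (FDR 1 from edgeR), nor did the mean ratio over mice of -0.08 (exact sign-flip permutation p = 0.828). Left-out mice moved it between -0.28 and 0.21, the latter without mouse 2.

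Ifitm5 was expressed more from the CAST allele in 7 of 7 mice. CAST counts were 214 to 767 (median 493) and B6 counts 187 to 680 (median 400). The log2 ratio was between 0.17 and 0.37 in every mouse, with a mean of 0.26 ± 0.0693 (SD, n = 7, exact sign-flip permutation p = 0.0156). The log2 fold change was 0.27, or 1.21-fold (FDR 0.134 from edgeR). The FDR rose to 0.219, 0.221 and 0.234 without mice 1, 3 and 8, above the threshold each time.

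The counts assigned to the osteocalcin copies went in opposite directions. Bglap counts were 11302 to 30084 from the B6 allele and 13531 to 37139 from the CAST allele, with medians of 18919 and 23827. CAST was higher in every mouse by 0.26 to 0.38 on the log2 scale (exact sign-flip permutation p = 0.0156). The fitted fold was 1.25 (log2 0.33, FDR 0.0273, edgeR). The SD of its log2 ratio over mice, 0.0502, was the smallest of the 8 genes.

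Bglap2 was counted almost entirely from the B6 allele. B6 counts were 6132 in mouse 7 to 16035 in mouse 5 (median 9607), and CAST counts were 9.06 in mouse 7 to 32.1 in mouse 5 (median 12.7). There was no overlap between alleles, and 99.8% of all Bglap2 counts were assigned to B6. The log2 fold change was -9.27, a B6 level 616 times that of CAST. The likelihood-ratio FDR was too small for the software to hold, and edgeR's quasi-likelihood test gave an FDR of 1.22e-19. The mean log2 ratio over mice was -9.27 ± 0.290 (SD, n = 7, exact sign-flip permutation p = 0.0156). Of the 21805 tested genes, 113 had a log2 fold change further from 0. They include the X-linked Phex (-9.94), of which these males hold no CAST copy.

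Bglap3 was counted mainly from the CAST allele, at a low level. CAST counts were 81.4 in mouse 7 to 215 in mouse 5, with a median of 149. B6 counts were 9.44 in mouse 7 to 38.4 in mouse 2, with a median of 18.5, and the lowest CAST value was above the highest B6 value. The log2 fold change was 2.74, or 6.67-fold (FDR 4.13e-43, edgeR), and the per-mouse log2 ratio was 2.73 ± 0.443 (SD, n = 7, range 2.00 to 3.16). Of the CAST counts summed over the copies, Bglap3 held a mean of 0.609% and Bglap 99.3%. Whether CAST reads of Bglap were assigned to Bglap3 was not tested. Inside each mouse, the allele ratios of the counts assigned to the copies differed from each other. Bglap exceeded Bglap2 by 9.58 ± 0.314 on the log2 scale and fell below Bglap3 by 2.42 ± 0.467 (SD, n = 7, exact sign-flip permutation p = 0.0156 for each of the 3 pairs, also after adjustment over the 3). Shared reads were divided among the copies, so these ratios are not independent of each other. The tests cannot tell a difference between copies from an effect of that division.

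**Figure D3:**
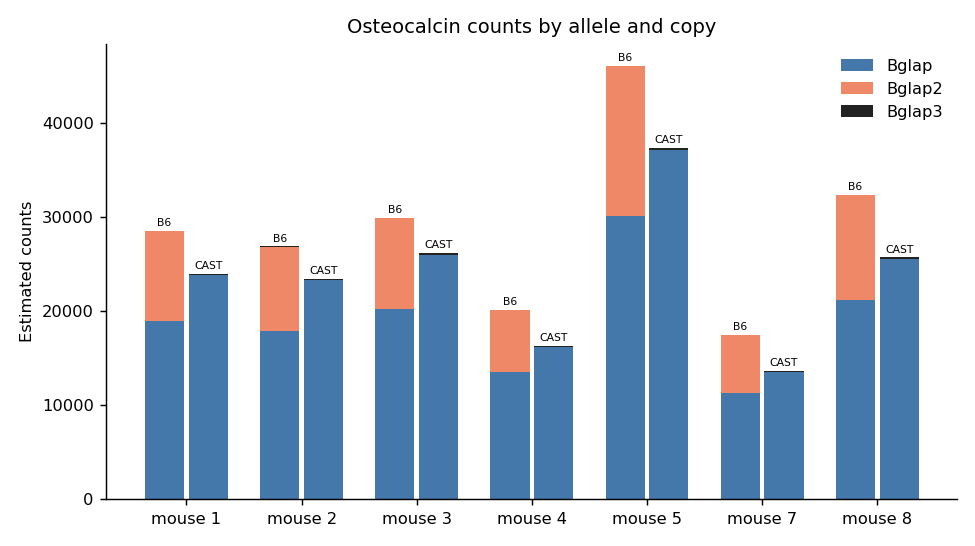
Estimated counts of the osteocalcin copies in each of 7 mice, as stacked bars with the B6 allele on the left and the CAST allele on the right of each pair. The CAST bars hold almost only Bglap, while Bglap2 makes up 32.3% to 35.2% of the B6 bars, and Bglap3 is a thin line at most.

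Since reads that matched more than 1 copy were divided among them, the copies were also added. The sum over the 3 copies was 17444 to 46146 counts from the B6 allele and 13621 to 37387 from the CAST allele. B6 was higher in 7 of 7 mice, the reverse of Bglap and Bglap3 on their own, with 54.8% ± 1.12 (SD, n = 7) of the sum. The per-mouse log2 ratio was -0.28 ± 0.0650 (SD, n = 7, range -0.36 to -0.19, exact sign-flip permutation p = 0.0156). With the copies replaced by their sum in the edgeR fit, a setting chosen after the data were seen, the log2 fold change was -0.26 (FDR 0.104). Of the B6 sum, 66.1% ± 1.06 was assigned to Bglap and 33.8% ± 1.08 to Bglap2, and of the CAST sum 99.3% ± 0.0625 was assigned to Bglap and 0.0655% ± 0.0151 to Bglap2 (SD, n = 7). Bglap3 held 0.0792% ± 0.0343 of the B6 sum and 0.609% ± 0.0695 of the CAST sum (SD, n = 7). Which copy a read in a shared stretch came from cannot be read from the counts, and the CAST sequences of the copies were not analysed here. Whether CAST Bglap2 reads were assigned to Bglap was not tested. Together the copies took 0.169% to 0.245% of each library.

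Across the 7 mice, the levels of Sp7 and of the main osteocalcin copies ran in nearly opposite order, but none of the 28 pairs of these genes passed an adjusted p of 0.05 and 5 passed it before adjustment. Pearson's r of log2 CPM was -0.92 between Sp7 and Bglap2 (exact permutation p = 0.00754, adjusted over the 28 pairs 0.106), with a Spearman rho of -0.89 (exact permutation p = 0.0123, adjusted 0.115). Between Sp7 and Bglap r was -0.87 (exact permutation p = 0.0196, adjusted 0.139) and rho was -0.93 (p = 0.00675 in the exact permutation test, adjusted 0.0944). Without mice 2 and 8, the farthest from the median Sp7 level, r was -0.82 with Bglap2 and -0.71 with Bglap. Bglap and Bglap2, which share reads, had an r of 0.96 (exact permutation p = 0.00198, adjusted 0.0556) and a rho of 0.93. Sp7 and Dlx3 had an r of 0.88 and a rho of 0.86 (exact permutation p = 0.0200 and 0.0238, adjusted 0.139 and 0.133).

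With Rn7s1, Rn7s2 and Rn7sk left out of the totals, 3 pairs passed, Sp7 with Bglap2 (r -0.97, adjusted exact permutation p = 0.0222), Sp7 with Bglap (r -0.94, adjusted exact p = 0.0352) and Bglap with Bglap2 (r 0.97, adjusted exact p = 0.00556). With TMM scaling only Bglap with Bglap2 passed, and the r of Sp7 with Bglap2 was -0.82 (adjusted exact permutation p = 0.218). Runx2 and Dlx5 had an r of 0.81 and a rho of 0.86 (exact permutation p = 0.0248 and 0.0238, adjusted 0.139 and 0.133), but r was 0.39 without mice 1 and 3. Marker levels also differed between mice. In mice 1, 2, 3, 4, 5, 7 and 8 in turn, Sp7 was 130, 131, 122, 114, 105, 105 and 95.8 CPM, and the summed osteoblast and osteocyte markers were 113843, 124817, 100802, 85595, 78754, 72623 and 71840 CPM. That sum is nearly all Col1a1 and Col1a2, and the other markers of the list differed in their order. Dmp1, with 288, 276, 236, 167, 206, 248 and 225 CPM, was highest in mice 1 and 2. So was Phex, with 92.6, 76.5, 74.1, 42.7, 61.8, 71.6 and 70.4 CPM. Alpl had 670, 774, 830, 843, 691, 619 and 634 CPM. Ibsp had 279, 324, 326, 230, 265, 251 and 306 CPM. Sost had 25.1, 22.3, 29.2, 17.3, 25.8, 32.1 and 28.7 CPM. Mepe had 36.5, 26.3, 45.3, 28.1, 38.4, 45.0 and 39.0 CPM. Erythroid markers summed to 10368, 8590, 8337, 11054, 20252, 19008 and 14635 CPM in the same mice. Blood lineages had their highest sums in mice 5 and 7, with 2523 and 2365 CPM for neutrophil and 353 and 367 CPM for B lineage markers. The part of these lists in the relations was not tested.

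**Figure D4:**
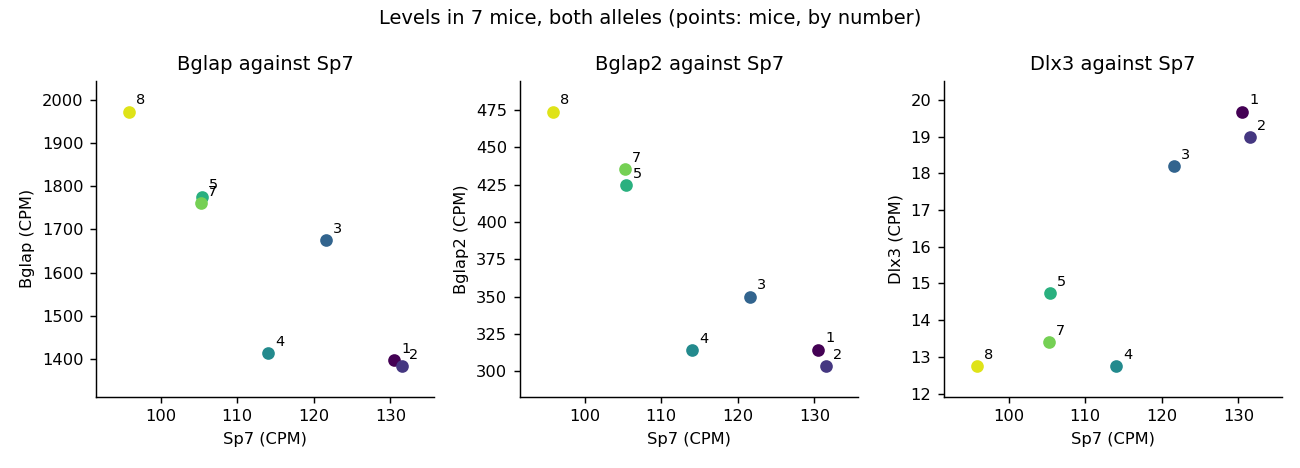
CPM of Bglap, Bglap2 and Dlx3 (vertical axes, both alleles) against CPM of Sp7 (horizontal axis), with 1 point per mouse labelled by its number. Mouse 2 has the highest Sp7 and the lowest Bglap and Bglap2, mouse 8 has the lowest Sp7 and the highest Bglap and Bglap2, and Dlx3 is highest in mice 1, 2 and 3.

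The genes whose profile over the 7 mice was closest to Runx2, Sp7, Ifitm5, Bglap and Bglap2 were found among the 15111 genes that reached 10 counts in each mouse, by the root mean square difference of centred log2 CPM. Closest to Sp7 was Mrc2, an endocytic collagen receptor, with a difference of 0.0320, followed by Caskin2 (0.0380) and Acvrl1 (0.0387), a receptor of the TGF-beta family. For Runx2 they were Galm (0.0469), Cntnap1 (0.0522) and Mamstr (0.0524). Ppa1, a pyrophosphatase (0.0482), Sfr1 (0.0529) and Gm2000 (0.0654) were closest to Bglap, and Hgh1 (0.0612), 1500011B03Rik (0.0640) and Stac (0.0699) to Bglap2. Ifitm5 had no equally close gene, with Cgref1 at 0.0778, Ifi27 at 0.0884 and Foxs1 at 0.0904.

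Genes beside the members were compared between alleles in the same edgeR fit. Beside Sp7, Sp1, a factor of the same zinc-finger family 39.0 kb away, was also higher from B6 in 7 of 7 mice, with a log2 fold change of -0.24 (FDR 0.0160) and means of 1048 B6 and 872 CAST counts. On the other side of Sp7, Aaas and Myg1 had equal counts for both alleles in every mouse, so they carry no information on allele balance. Amhr2 was not called (0.06, FDR 1). Next to Dlx3, its partner Dlx4, 15.2 kb away, had more CAST counts in 6 of 7 mice (log2 fold change 0.61, FDR 0.0206), and the integrin gene Itga3 in 7 of 7 (0.23, FDR 0.183). Gm11513 (-0.09) and Dlx4os (0.14) were not called. None of the 4 neighbours of Dlx5 was called, including its partner Dlx6 (-0.18, FDR 0.778), Sdhaf3 (0.22, FDR 0.528), Gm26774 (0.63, FDR 0.677) and Dlx6os2 (-0.43, FDR 0.757).

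Immediately beside Bglap3, 75 bases away on the opposite strand, Paqr6, a membrane progestin receptor family gene, had 72.3 CAST and 15.6 B6 counts on average. Its log2 fold change was 2.24 (FDR 8.18e-27, edgeR), with CAST higher in 7 of 7 mice, near the 2.74 of Bglap3. Pmf1, 9.68 kb beyond Bglap, went the other way by 0.16 on the log2 scale and was not called (log2 fold change -0.16, FDR 0.505), but passed at an FDR of 0.0637 with mice as a replicate block. The pseudogenes Gm21956 and Gm6821 between the copies were called with B6 higher (-3.36, FDR 0.0173, and -2.05, FDR 0.149), on means of 1.13 and 1.02 B6 counts per mouse. Their median counts of both alleles were only 0.0017 and 0.25. Gm21956 was higher from B6 in 4 mice and from CAST in 1, and Gm6821 from B6 in 7. Beside Ifitm5, Pgghg, which encodes a collagen-deglycosylating enzyme and lies 1.29 kb away, was higher from CAST in 7 of 7 mice (0.67, FDR 2.94e-12). Ifitm1 was likewise higher from CAST (1.62, FDR 8.47e-12), while Ifitm2, the nearest family member at 4.55 kb, was higher from B6 in 7 of 7 mice (-0.21, FDR 0.164). Nlrp6, with few counts, was not called (0.48, FDR 0.567). Around Runx2, Clic5, a chloride channel family gene 216 kb away, was higher from CAST in 7 of 7 mice (0.58, FDR 0.000773). Within the Runx2 locus on the opposite strand, Runx2os1 was higher from B6 in 5 of 7 mice (-1.42, FDR 0.0244, median 16.2 counts), Runx2os2 was not called (-0.35, FDR 0.433) except at an FDR of 0.0118 with mice as a replicate block, and Runx2os3 had a median of 1 count.

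Genes that work with the members moved in both directions. Of 15 osteoblast matrix and mineral genes, 2 were higher from CAST and 2 from B6, and the median log2 fold change was 0.03, beside 0.01 over all tested genes. With mice as a replicate block 10 of the 15 were called, 5 in each direction, beside 42.7% of all tested genes in that fit. Mepe, a matrix phosphoglycoprotein of osteocytes, was higher from B6 in 7 of 7 mice, with 581 B6 and 384 CAST counts on average (-0.58, FDR 4.87e-05, edgeR). Phex, an endopeptidase gene on the X chromosome, of which males hold a single copy, had 1865 B6 and 1.87 CAST counts on average. It is among the genes counted with B6 higher in both fits, but its call is not a difference between alleles of a mouse. Pth1r, the receptor of parathyroid hormone (0.24, FDR 0.175), and Sparc, a collagen-binding matrix glycoprotein (0.17, FDR 0.176), were higher from CAST in 7 of 7 mice. Col1a1 and Col1a2, the chains of type I collagen, had log2 fold changes of 0.05 and -0.06 and were not called (FDR 0.972 and 0.917). With mice as a replicate block both were, Col1a1 with CAST higher and Col1a2 with B6 higher (FDR 2.41e-12 for Col1a2, and too small for the software to hold for Col1a1), each in 7 of 7 mice.

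Of 25 regulators and partners of Runx2 and Sp7, 5 were higher from CAST and 3 from B6, with a median log2 fold change of 0.09, and 13 were called with mice as a replicate block (8 and 5), beside 42.7% of all tested genes. Smurf1, a ubiquitin ligase that acts on Runx2 and Smad proteins, was higher from CAST (0.27, FDR 0.0306). So were Smad1, a transducer of BMP signals (0.23, FDR 0.0985), and Lef1, a transcription factor of the Wnt pathway (0.28, FDR 0.103), each in 7 of 7 mice. Of 18 paralogs of the members, 16 were tested, and 4 were higher from CAST and 3 from B6, with a median of 0.01. Mgp, a vitamin K-dependent inhibitor of calcification related to osteocalcin, was higher from B6 in 7 of 7 mice (5327 B6 and 3377 CAST counts on average, -0.64, FDR 0.000113). Ifitm10 was higher from CAST in 7 of 7 mice (0.57, FDR 0.000387), as was Ifitm1. Of the 6 genes of osteocalcin processing and reception, 5 were tested and 2 were higher from CAST, with a median of 0.10. They were Furin, a proprotein convertase (0.27, FDR 0.0521), and Ptprv, the osteotesticular phosphatase gene, with 784 CAST and 226 B6 counts on average (1.82, FDR 1.23e-70). Gprc6a, an amino acid-sensing receptor proposed to bind osteocalcin, had 0 counts in every mouse and so was not tested. The lists were chosen with earlier results of these data known, and their shares without the block are to be read beside the 32.6% of all tested genes. Among genes that reached 10 counts in each mouse, as 15, 24, 14 and 5 genes of the lists did in turn, 37.1% were called. The 42.7% with the block includes genes of low count.

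A promoter entry in RefSeq (GRCm38.p6) was found for 4 of the 8 genes, Runx2, Ifitm5, Bglap and Bglap3. The upstream side of the Bglap promoter is shown because it holds the core letters of the RUNX motif and a TATA box, both in capitals (ACCACA, then TATAAA), from 140 bases before the start site to the base before it, chr3:88384467-88384606 on the minus strand.
Bglap upstream: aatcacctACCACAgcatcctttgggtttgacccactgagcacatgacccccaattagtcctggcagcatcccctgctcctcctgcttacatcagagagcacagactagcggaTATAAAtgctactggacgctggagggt
The ACCACA began 132 bases and the TATAAA 27 bases before the start site. Searched on both strands over 300 bases (250 before and 50 after the start), ACCACA was present in 16.8% and TATAAA in 13.6% of 32851 promoters. The Runx2 promoter held ACCACA at 3 places. Neither ACCACA nor TATAAA, as exact letters, was found in the 3 promoter windows of Bglap3 or in that of Ifitm5. Other forms of the RUNX motif or the TATA box were not searched, so these windows may still hold them. These matches describe letters of the B6 reference, and no binding was measured here.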

How the data were processed

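Growth plate RNA of 7 F1 mice was analysed as 7 replicates of 1 condition. The authors aligned reads with Bowtie (SAMtools is also named in the submitters' processing notes, versions not stated) to a joint B6 (mm10) and CAST transcriptome with at most 3 mismatches. From these alignments the authors made the deposited estimated counts with EMASE, for each allele of each gene, processing lanes and read ends apart. The values carry no normalization. They can be fractional, since EMASE splits a read that matches more than 1 allele or gene. Both ends of a fragment may be counted, so counts are not independent molecules.

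GENCODE M21 gave symbols for 42462 of 43346 genes. A gene was tested where each of the 7 mice had a value above 0 for either allele, which left 21805 genes. The tables hold 12144 values above 0 but under 1e-06, which pass this filter. Counts were rounded, TMM-scaled and compared between alleles with edgeR 4.0.16 (R 4.3.3, glmFit and glmLRT), with Benjamini-Hochberg FDR over all tested genes, and a gene was called under 0.20. Log2 ratios in single mice used a pseudocount of 0.5 and an exact sign-flip permutation test, two-sided. Alternatives were DESeq2 1.42.0, edgeR's quasi-likelihood test, other library sizes, filters, thresholds, rounding and pseudocounts, exon against transcript length, each mouse left out, and the mouse as a replicate block.

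Both alleles of a mouse come from the same animal and library, which pairs them. The deviations of the alleles from their means correlated by 0.18 on average within a mouse (0.05 to 0.33, 7 mice) and by -0.03 between mice. No pair of mice agreed within sampling noise. Per-length levels are counts per kb of the union of exons and CPM. Members and gene lists were chosen with earlier results of these data known. Named beyond the members were the 3 genes of each list with the smallest FDR in each direction among those called and of 1 direction in all mice, the nearest 2 tested genes on each side of a member, the 3 genes of closest profile, and markers. Col1a1, Col1a2 and Gprc6a were named beside them after their values were seen. Python 3.11.15, scipy 1.17.1 and matplotlib 3.10.9 were used.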

Additional observations from a re-analysis of the deposited data

How the results depend on the processing

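Over 34 results and 332 alternatives, 301 were taken as unchanged. For a tested difference this means the same direction and side of the threshold. For a count of called genes or of pairs it means a count of similar size, such as 4 in place of 6 members called without mouse 1. Dlx3, Bglap, Bglap2, Bglap3 and the summed copies kept theirs in every alternative run. The exceptions follow. With the mouse as a replicate block Runx2 was called, at a log2 fold change of -0.10 in both the likelihood-ratio and the quasi-likelihood test, and no other member changed its call. The block also raised the called genes to 10 of the osteoblast matrix list and 13 of the regulators list. At an FDR threshold of 0.05, Sp7 (-0.24) and Ifitm5 (0.27) were no longer called. Member pairs with an adjusted p under 0.05 numbered 1 with TMM-scaled CPM and 3 without Rn7s1, Rn7s2 and Rn7sk.

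When single mice were left out, the log2 fold change ranged from -0.27 to -0.22 for Sp7 (lost without mouse 1), from 0.25 to 0.29 for Ifitm5 (lost without mice 1, 3 or 8) and from -0.28 to 0.21 for Dlx5, which is not called in any fit and was 0.02 without mouse 1, 0.21 without mouse 2, 0.03 without mouse 5 and 0.02 without mouse 8. The mean log2 ratio over mice ranged from -0.14 to -0.089 for Runx2 and from -0.26 to 0.13 for Dlx5, turning positive without mouse 2. For Runx2 and for the excess of Runx2 over Dlx3 in per-length level (0.26 to 0.38), leaving out any of the 6 mice that share the direction, or all but mouse 2, gave p above 0.05, where 6 mice cannot go under 0.0312. Bglap3 exceeded Dlx5 by 0.32 to 0.52, past the threshold without mouse 1. The pairs that passed numbered 0 to 3, with 3 without mouse 4. Apart from fewer mice, the cause was not tested. Depth limits Dlx5, with 63 to 164 counts per mouse, and the CAST counts of Bglap2.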
